A study of Mus musculus with 6 samples.

Results

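The 10 genes described here encode transcription factors, surface proteins and secreted products of microfold cells: Spib, Sox8, Gp2, Tnfaip2, Marcksl1, Anxa5, Ccl20, Ccl9, Pglyrp1 and Scg5. They were chosen by name, with earlier results of these data known, from the table's 24054 gene rows, and all 10 had counts. The data are messenger RNA counts of mouse salivary gland in 2 groups of 3 libraries, each made from the pooled glands of 5 mice. The K5-RANKL group carried K5-rtTA and TetO-RANKL, in which the keratin 5 promoter of basal epithelial cells drives a doxycycline-dependent activator that switches on RANKL, and the control group was monogenic. Every mouse, control or not, was given doxycycline in food and water for 2 weeks, starting at 9 weeks of age. The control transgene, the strain, the sex and the kind of salivary gland are details not given in the sources used here, and p-values measure only the spread between pools.

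Microfold cells, or M cells, are epithelial cells over mucosal lymphoid follicles that carry particles and microbes from the lumen to the immune cells beneath. In the gut they arise when RANKL from stromal cells under the epithelium binds its receptor RANK on epithelial precursors, which activates NF-kB and in turn the transcription factors Spi-B and Sox8. Mature M cells carry the uptake receptor glycoprotein 2, and the follicle epithelium releases the chemokine CCL20, which draws cells with the receptor CCR6. Several of the 10 genes are also used by other cells, such as Spib in B cells and plasmacytoid dendritic cells and Pglyrp1 in neutrophils, and their markers are given beside the results.

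Total counts lay between 13875951 and 17921815 per library. Levels are given as CPM, counts per 1000000 of a library size scaled by the trimmed mean of M values (TMM), and a gene was called at an adjusted p under 0.05 in edgeR's quasi-likelihood test over 14044 genes. A count of 0 allows a level of up to 3 counts, or 0.235 to 0.295 CPM in controls and 0.125 to 0.161 CPM in K5-RANKL libraries, which covers counting error only. Scaling by library totals in place of TMM moved the median difference over the tested genes from 0.01 to 1.01 on the log2 scale, so small differences depend on the scaling. Tnfsf11, which encodes RANKL, stood at 3.78, 1.87 and 0.939 CPM in controls and at 702, 405 and 723 CPM in K5-RANKL libraries (log2 fold change 8.15, SE 0.53, edgeR adjusted p = 0.000155, and 8.80 without control 1). Control 1 held the most Tnfsf11 of the controls and K5-RANKL 2 the least of its group.

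All 10 genes rose in K5-RANKL glands, and in none did the libraries of the groups overlap. In the same comparison 34.2% of all genes tested were called higher, and 36.3% had every K5-RANKL library above every control. The 10 genes had a median log2 fold change of 4.54, against 0.01 over all genes tested. Of the 10, 8 were called at least 8-fold higher, which held for 2.78% of all genes tested. Because the 10 were chosen with earlier results of these data known, these contrasts are a description and not an independent test. The rise ran from 0.45 for Anxa5 to 9.60 for Ccl20 on the log2 scale, and Ccl20 ranked 5 among the 14044 genes. Together the 10 genes took 0.0228%, 0.0175% and 0.0168% of all counts in controls and 0.362%, 0.306% and 0.353% in K5-RANKL libraries. These shares are of library totals without TMM scaling. With TMM scaling the 10 summed to 236 to 338 CPM in controls and 2318 to 2466 CPM in K5-RANKL libraries. In bulk tissue, more cells of a kind and more RNA per cell cannot be told apart. The plot of CPM by library shows the 3 pools of a group close together in most genes, and the wider controls of Ccl20, Sox8, Scg5 and Pglyrp1.

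**Figure D1:**
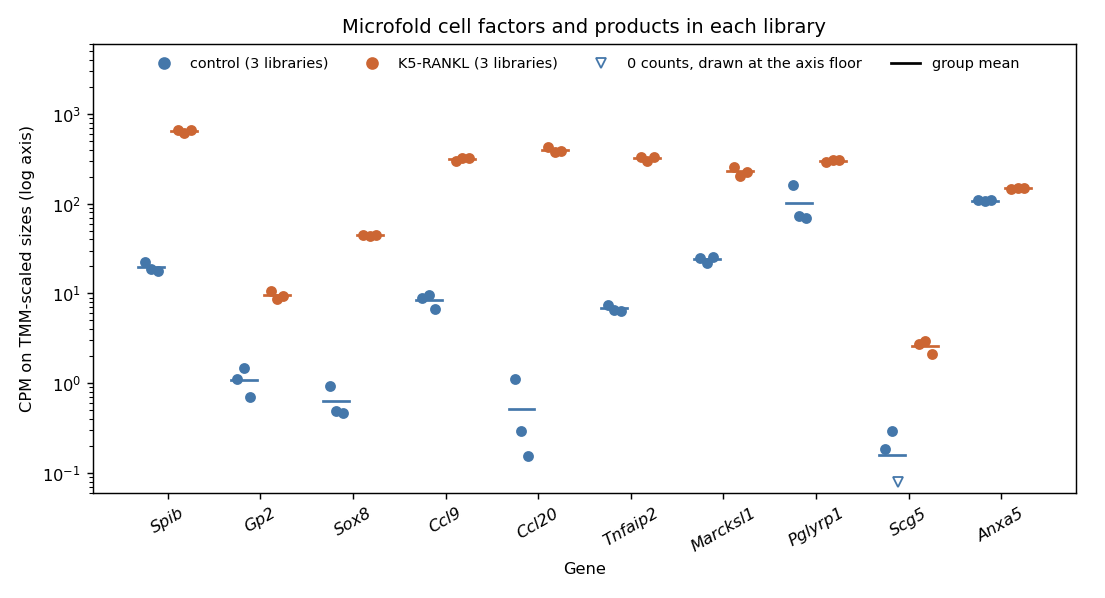
Level in CPM (log axis, TMM scaling) of the 10 microfold cell genes in 3 control and 3 K5-RANKL libraries, with points for libraries and bars for group means. Every K5-RANKL point lies above every control point of its gene, from Anxa5, at 106 to 110 against 144 to 151 CPM, to Ccl20, at 0.156 to 1.11 against 375 to 428 CPM.

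Because RANK signals through NF-kB, the 250 bases before each gene's start in the promoter table were searched for the kappa-B consensus, the 10-base NF-kB motif, on both strands. It was found in the windows of 5 of the 10 genes (Spib, Ccl20, Ccl9, Pglyrp1 and Tnfaip2) and in 7.25% of all 32851 promoters of the same table. The windows of Spib, Ccl20, Ccl9 and Pglyrp1 are printed to show where the matches lie, 5′ to 3′ on the gene's strand, from RefSeq GRCm38.p6, with the matches in capitals.
Spib, chr7:44532072-44532321, minus strand: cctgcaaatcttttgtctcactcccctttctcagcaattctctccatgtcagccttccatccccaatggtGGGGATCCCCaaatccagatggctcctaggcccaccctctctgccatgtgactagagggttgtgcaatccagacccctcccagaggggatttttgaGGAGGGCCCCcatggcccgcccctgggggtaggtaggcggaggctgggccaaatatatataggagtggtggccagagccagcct
Ccl20, chr1:83116516-83116765, plus strand: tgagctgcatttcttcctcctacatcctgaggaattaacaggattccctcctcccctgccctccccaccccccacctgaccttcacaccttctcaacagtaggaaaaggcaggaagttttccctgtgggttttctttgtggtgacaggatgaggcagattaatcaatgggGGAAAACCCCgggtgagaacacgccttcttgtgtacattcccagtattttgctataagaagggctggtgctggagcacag
Ccl9, chr11:83578637-83578886, minus strand: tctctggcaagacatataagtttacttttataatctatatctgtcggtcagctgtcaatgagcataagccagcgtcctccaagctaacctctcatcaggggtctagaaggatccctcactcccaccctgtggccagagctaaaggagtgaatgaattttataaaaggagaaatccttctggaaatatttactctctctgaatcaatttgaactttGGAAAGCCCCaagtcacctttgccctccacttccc
Pglyrp1, chr7:18884440-18884689, plus strand: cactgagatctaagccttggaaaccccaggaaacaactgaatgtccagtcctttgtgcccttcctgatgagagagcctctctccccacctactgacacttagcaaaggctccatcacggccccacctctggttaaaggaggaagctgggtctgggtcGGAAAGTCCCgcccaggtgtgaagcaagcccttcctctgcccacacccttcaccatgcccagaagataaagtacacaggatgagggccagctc

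In Spib the upstream match, GGGGATCCCC, lies 180 to 171 bases before the start and reads as a match on both strands, and the other, GGAGGGCCCC, at 84 to 75, reads on the opposite strand. The last 16 bases of that window lie within the annotated gene, which has another start. The matches of Ccl20, Ccl9 and Pglyrp1, 80 to 71, 35 to 26 and 93 to 84 bases before their starts, all read on the opposite strand. The match of Tnfaip2, GGAGGGCCCC, lies 24 to 15 bases before the start the table uses, but inside the annotated gene, which begins further upstream and holds 211 of the 250 bases of that window. The Spi-B type core GAGGAA, also counted on both strands, was found in the windows of Ccl20, Marcksl1 and Pglyrp1 (23.3% of all promoters), and the Sox type core ACAAAG in those of Ccl20 and Pglyrp1 (16.5%). ACAATG was in none of the 10 windows (10.7% of all promoters). TATAAA was in those of Gp2 and Ccl9 (12.4%), at 32 to 27 bases before the start of Gp2. These matches describe letters in a window and say nothing of binding.

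Spib encodes Spi-B, an ETS family transcription factor that M cells need to mature. It lies on chromosome 7 from 44525995 to 44532087 in GRCm38 (Entrez 272382). Its level was 22.5, 18.9 and 17.7 CPM in controls and 656, 605 and 657 CPM in K5-RANKL libraries. Every K5-RANKL pool was thus far above every control pool, and K5-RANKL 2 was the lowest of its group. The log2 fold change was 5.02 (SE 0.10, 32.5-fold, edgeR adjusted p = 3.28e-16).

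Sox8, a SoxE transcription factor that acts in M cell maturation and on Gp2, had few counts in controls, with 10, 5 and 6 counts or 0.922, 0.491 and 0.469 CPM. K5-RANKL libraries held 45.3, 43.8 and 45.2 CPM, the tightest group of any of the 10 genes, with an SD of 1.86% of the mean. The rise was 71.2-fold, a log2 fold change of 6.15 (SE 0.16, edgeR adjusted p = 6.94e-15). The gene lies on chromosome 17 from 25565893 to 25570686 (Entrez 20681).

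The relatives of these factors were called in both directions, in shares near those of all genes tested (34.2% higher and 32.1% lower). Of 13 other ETS factors tested, 6 rose and 4 fell, 3 missed the threshold, and the median was 0.16. The highest was Spi1, encoding PU.1 of myeloid and B cells, at 2.25 (SE 0.10), and the lowest was Elf5, a factor of secretory epithelium, which fell by 2.12 (SE 0.13). Spdef fell by 2.10, and Ehf and Ets2 by 0.61 and 0.20, although Ehf and Ets2 turned to 0.39 and 0.80 by library totals and the call of Ets2 was lost without control 3 or K5-RANKL 3. Within a library the ratio of Spib to Spi1, which does not depend on scaling, rose by 2.77 on the log2 scale, or 6.83-fold, and its groups did not overlap (exact permutation test, two-sided, p = 0.10, the smallest that 3 against 3 allows).

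Among 9 other Sox factors tested 2 rose, 3 fell and 4 did not pass. Those that fell were Sox10 (−1.18), Sox2 (−1.15) and Sox9 (−0.35), and Sox4 and Sox18 rose by 0.97 and 0.65. By library totals Sox9 turned to 0.64 and the calls of Sox10 and Sox2 were lost. Sox9 and Sox10 are the other SoxE genes, and Sox10 stood at 88.9 ± 4.62 CPM in controls and 39.3 ± 2.34 in K5-RANKL pools (SD, n = 3 each). Within a library the ratio of Sox8 to Sox10 rose by 7.30 on the log2 scale, or 157-fold, and the ratio of Sox8 to Sox9 by 6.47, with no overlap of the groups in either (exact permutation p = 0.10 each, two-sided, the smallest possible). The plot of fold changes by family sets 6 of the 10 genes among their relatives.

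**Figure D2:**
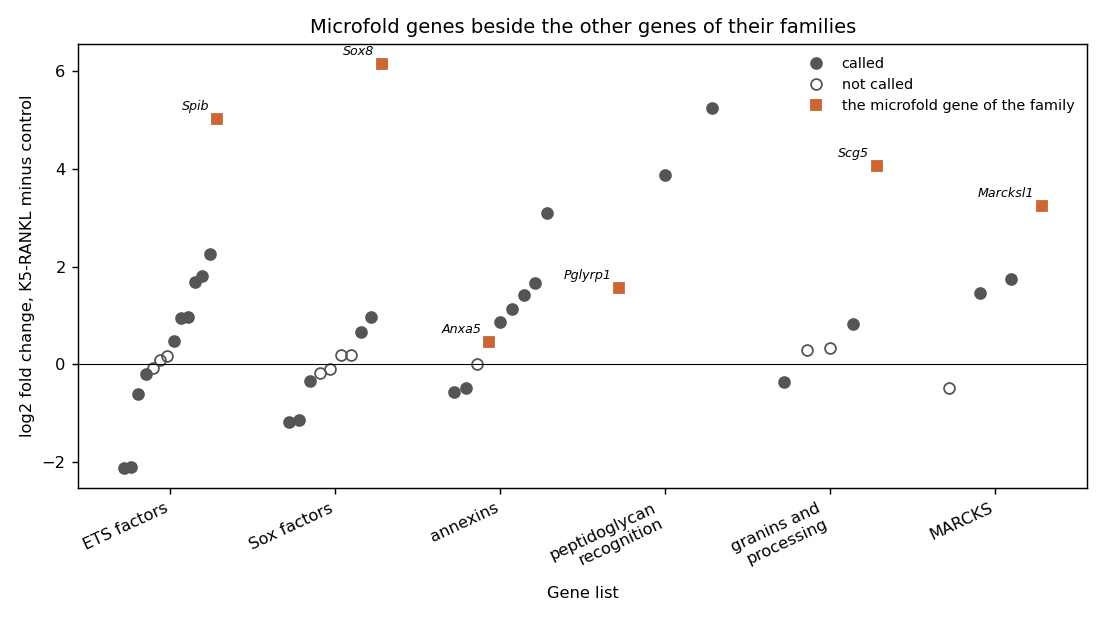
Log2 fold change, K5-RANKL minus control (y axis), of 6 microfold cell genes (squares) and of the other tested genes of their families (circles, filled where called), by gene list (x axis). Spib, Sox8, Scg5 and Marcksl1 stand above every relative plotted with them, Pglyrp1 below both of its relatives, and Anxa5 between annexins that rose and annexins that fell.

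Gp2, encoding glycoprotein 2, the M cell receptor for bacteria with type 1 pili and otherwise a protein of zymogen granules, was low in both groups. It stood at 1.11, 1.47 and 0.704 CPM in controls (12, 15 and 9 counts) and at 10.6, 8.56 and 9.46 CPM in K5-RANKL libraries. The groups lay well apart, and Gp2 (chromosome 7, 119442537 to 119459272) rose by 3.16 (SE 0.22, 8.91-fold, edgeR adjusted p = 1.03e-09). Since Gp2 also marks the pancreas, 9 pancreatic acinar genes were looked up, of which none had enough counts to test. Cpa1, Cpb1 and Ptf1a had 0 counts in all libraries. The 9 together summed to 0.0982 to 0.461 CPM in controls and to 0.749 to 0.978 CPM in K5-RANKL libraries. Prss2 went from 2 counts over the controls to 38, Cel from 0 to 11 and Pnlip from 7 to 5. Ctrb1, Cela2a and Cela3b had 0 counts in controls and 2, 1 and 1 in K5-RANKL libraries. Umod, encoding uromodulin, the close relative of glycoprotein 2, is the next tested gene on chromosome 7, 3435 bases from Gp2. It had 0 counts in all controls and 6.31, 1.5 and 3.03 CPM in K5-RANKL libraries, at least 43.0-fold higher against 3 counts over the control group. The edgeR adjusted p of Umod was 0.0601, which misses the threshold, and over the alternatives it ran from 4.73e-07 to 0.187. Umod was called by DESeq2, by voom, by library totals and without K5-RANKL 1 or 2.

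Tnfaip2, also called M-Sec, is an actin-linked protein of membrane protrusions and a target of NF-kB. It went from 7.47, 6.58 and 6.42 CPM in controls to 334, 301 and 334 CPM, again lowest in K5-RANKL 2, a rise of 5.57 (SE 0.10, 47.4-fold). Its adjusted p of 1.68e-16 was the smallest of the 10 genes (edgeR). Tnfaip2 (chromosome 12, 111442450 to 111455018) is also made by myeloid cells, and its ratio to the macrophage receptor gene Csf1r rose by 3.35, with no overlap.

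Marcksl1, on chromosome 4 from 129513581 to 129515981, encodes a membrane-bound relative of the actin regulator MARCKS and had the widest relative spread of the 10 in K5-RANKL glands after Scg5. Controls held 24.8, 21.9 and 25.4 CPM and K5-RANKL libraries 256, 203 and 227 CPM, a rise of 3.25 (SE 0.10, edgeR adjusted p = 4.96e-14). Marcks itself rose by 1.45 (SE 0.08) and Basp1, a similar membrane protein gene, by 1.75 (SE 0.14), while Gap43 stood at −0.49 and did not pass. Within a library the ratio of Marcksl1 to Marcks rose by 1.80 on the log2 scale, or 3.49-fold, and its groups did not overlap.

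Anxa5, encoding the phosphatidylserine-binding annexin A5 (chromosome 3, 36448923 to 36475887), changed least. It was at 110, 106 and 110 CPM in controls and at 144, 148 and 151 CPM in K5-RANKL glands, a small rise with no overlap of the groups, of 0.45 (SE 0.07, 1.36-fold, edgeR adjusted p = 1.98e-05). Of the 8 other annexins tested 5 rose, 2 fell and 1 missed the threshold (median 1.01), beside 34.2% higher and 32.1% lower over all genes. Anxa8, an annexin of squamous epithelium, rose by 3.09 (SE 0.33), and Anxa11 and Anxa6 fell by 0.57 and 0.49 but turned to 0.43 and 0.50 by library totals. Against the epithelial gene Epcam in the same library Anxa5 was lower in K5-RANKL glands, by 0.34 on the log2 scale, with no overlap of the groups, whereas the ratios of the other 8 genes with counts in every library to Epcam all rose.

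Ccl20, the chemokine ligand of CCR6 (chromosome 1, 83116766 to 83119167), had the largest rise of the 10 genes. Its controls held 12, 3 and 2 counts, or 1.11, 0.295 and 0.156 CPM, and its K5-RANKL libraries 428, 375 and 384 CPM. The controls were near the detection limit, so the size of the rise, a log2 fold change of 9.60 (SE 0.23, edgeR adjusted p = 7.44e-12), rests on few counts, and it was 10.78 without control 1. Per kilobase of exon it went from 0.365 ± 0.361 to 278 ± 19.8 CPM (SD, n = 3 each). In controls Ccl20 overlapped with Gp2 on this scale, and in K5-RANKL glands only Pglyrp1 exceeded it among the 10. Ccr6 rose by 1.33 (SE 0.18) from 3.13 ± 0.523 to 7.84 ± 1.21 CPM.

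Ccl9, a chemokine of the follicle epithelium that draws dendritic cells with CCR1 and is also made by macrophages and osteoclasts, stood at 8.94, 9.62 and 6.73 CPM in controls and at 299, 323 and 323 CPM in K5-RANKL libraries. Its lowest K5-RANKL value was in library 1 and not in K5-RANKL 2. The gene lies on chromosome 11 from 83572917 to 83578636, and its rise was 5.23 (SE 0.11, 37.6-fold, edgeR adjusted p = 3.89e-16). Ccl6, a closely related chemokine gene, rose by 3.74 (SE 0.09) from 7.09 ± 0.765 to 94.4 ± 1.23 CPM (SD, n = 3 each). The ratio of Ccl9 to Csf1r rose by 3.02, or 8.11-fold, and its groups did not overlap (exact permutation p = 0.10, two-sided, the smallest possible).

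Pglyrp1, encoding a secreted peptidoglycan recognition protein that binds bacterial cell walls, was already abundant in controls and varied between them. Control 1 held 161 CPM and controls 2 and 3 held 73.6 and 68.9, while K5-RANKL libraries lay close together at 290, 308 and 303 CPM. Pglyrp1 (chromosome 7, 18884690 to 18890438) rose by 1.57 (SE 0.39, edgeR adjusted p = 0.023). Leaving out control 2, control 3 or any 1 of the K5-RANKL libraries ended the call, at edgeR adjusted p from 0.0556 to 0.0728. Without control 1 the rise was 2.07 at an edgeR adjusted p of 9.62e-12. The related genes Pglyrp2 and Pglyrp4 also rose, Pglyrp2 by 3.87 (SE 0.12) and Pglyrp4 from 2 counts over the controls to 165, a ratio of 43.4 (95% counting interval 11.8 to 362). The ratio of Pglyrp1 to the neutrophil receptor gene Csf3r in a library was 6.91, 5.91 and 5.29 log2 units in controls and 5.30, 5.65 and 5.53 in K5-RANKL libraries, with overlapping groups (exact permutation p = 0.40, two-sided).

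Scg5, encoding the neuroendocrine chaperone 7B2 and also found in M cells, was the lowest of the 10 per kilobase of exon, with 2, 3 and 0 control counts and 66, 55 and 45 in the K5-RANKL pools. In CPM these are 0.184, 0.295 and 0 against 2.74, 2.94 and 2.10. The groups of Scg5 (chromosome 2, 113776313 to 113829091) did not overlap, and the rise was 4.06 (SE 0.47, edgeR adjusted p = 7.51e-07), with 3.40 without control 3 and 4.82 without control 2. Other granin and prohormone processing genes mostly stayed below the counts needed for a test: of 9, 4 were tested, Scg3 rose by 0.83, Cpe fell by 0.36 and 2 did not pass. The call of Scg3 was lost by DESeq2 and without control 1, control 2 or K5-RANKL 1, and Cpe turned to 0.64 by library totals. Of 6 neuroendocrine markers 3 were tested, of which 2 rose, Scg3 and Insm1. Neurod1 had 0 counts in all libraries, Chga went from 3 counts in all to 32, Syp, of synaptic vesicles, stood at −0.10 and did not pass, and Insm1, a neuroendocrine transcription factor gene, rose by 2.85 (SE 0.30).

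Per kilobase of exon the order of the 10 genes changed between the groups. In controls Pglyrp1 (146 ± 74.9 CPM per kilobase) and Anxa5 (62.6 ± 1.28) led, followed by Marcksl1, Spib, Ccl9 and Tnfaip2, and the 4 lowest, Gp2, Ccl20, Sox8 and Scg5, overlapped each with the next. In K5-RANKL glands the order was Pglyrp1 (433 ± 13.3), Ccl20, Spib (229 ± 10.7), Marcksl1, Ccl9 (105 ± 4.61), Anxa5, Tnfaip2, Sox8 (14.4 ± 0.268), Gp2 (4.78 ± 0.518) and Scg5 (2.15 ± 0.366; SD, n = 3 each), and only Anxa5 and Tnfaip2, at 85.2 ± 1.83 and 84.7 ± 4.94, overlapped. Of the 10 genes 6 were lowest in K5-RANKL 2 among K5-RANKL libraries, as were 35.9% of all genes tested, and 5 were highest in control 1 among controls, as were 33.7%. The deviations of K5-RANKL 2 from its group were small, between −0.25 for Marcksl1 and 0.30 for Scg5 on the log2 scale. Within K5-RANKL glands, 7 of the 10 had a coefficient of variation below the median of all genes tested, 7.62%, and in controls 3 of the 10 were below the median there, 9.79%.

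Of 16 other genes linked to M cells and found in the table, 11 rose, 1 fell and 4 missed the threshold (median 2.07). Over all genes tested 34.2% were called higher and 32.1% lower. The individual genes of this list were partly singled out after their values were seen. Tnfrsf11b, encoding the decoy receptor osteoprotegerin that M cells release, rose most among called genes, by 5.78 (SE 0.16). C5ar1, a complement receptor of M cells, rose by 3.89, Clu by 3.56, the nonclassical histocompatibility gene H2-M2 by 3.03, S100a4 by 3.11, Prnp, encoding the cellular prion protein, by 2.14 and Aif1, which acts in particle uptake, by 1.99. Of these, C5ar1, Aif1 and S100a4, like Ccl6, are also genes of myeloid cells, whose macrophage markers had a median of 2.34, and the part of those cells in their rise was not tested. Esrrg, encoding a nuclear receptor that acts in M cell maturation, was the one that fell. It stood at 84.6, 84.1 and 104 CPM in controls and at 36.6, 45 and 39.0 CPM in K5-RANKL libraries, a change of −1.18 (SE 0.10, edgeR adjusted p = 2.81e-08), with −0.19 and no call by library totals. Atoh8, a factor that restrains M cell number, stood at 0.89 (edgeR adjusted p = 0.0587, from 6.82e-05 to 0.263 over the alternatives), and Ctsh and Icam2 at 0.12 and 0.08. By library totals 15 of the 16 rose and none fell.

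**Figure D3:**
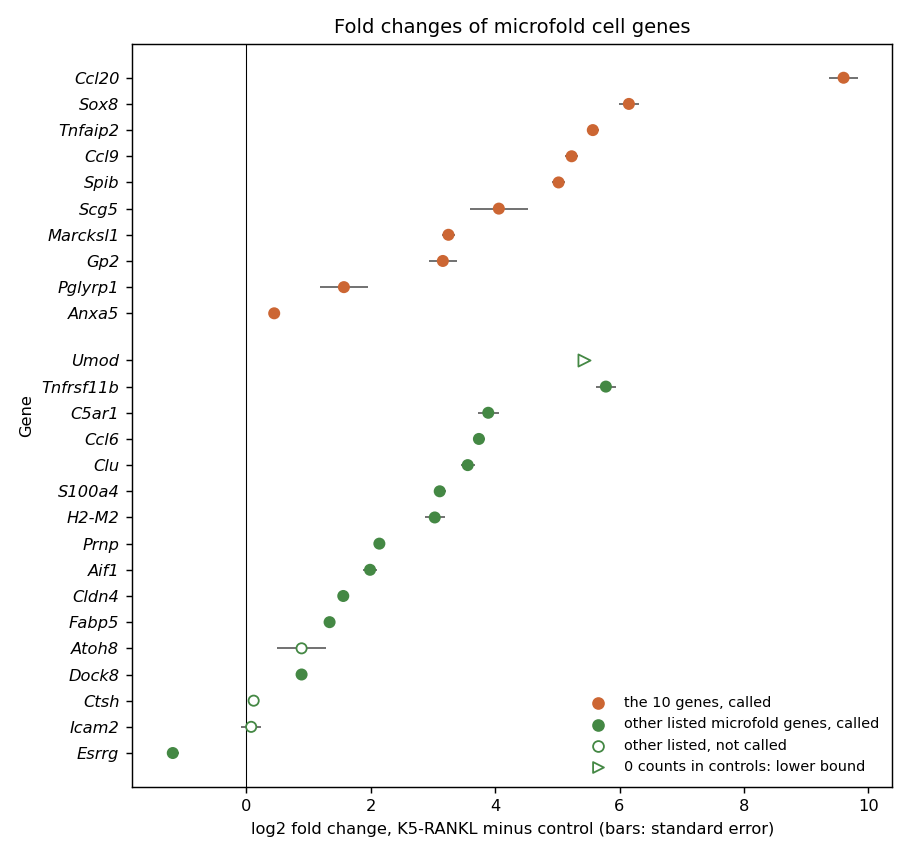
Log2 fold change with its standard error (x axis) of the 10 microfold cell genes and 16 other listed genes (y axis), filled where called, with Umod drawn at its lower bound. The 10 genes run from 0.45 (Anxa5) to 9.60 (Ccl20), and Esrrg, at −1.18, is the gene to the left of 0.

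In the relay from RANK to NF-kB, 15 of 19 genes rose and 0 fell, beside 34.2% called higher over all genes tested, and the median was 0.83. The 19 include Tnfsf11, which the transgene supplies, and without it 14 of 18 rose (median 0.80). Tnfrsf11a, encoding RANK, rose by 2.55 (SE 0.11) from 8.69 ± 0.681 to 50.5 ± 4.72 CPM. Among the NF-kB subunits and inhibitors Nfkbie rose by 3.22 (SE 0.14), Relb by 2.82 (SE 0.10) and Nfkb2 by 2.33 (SE 0.09). Map3k14, the kinase gene of the noncanonical arm, rose by 2.17 (SE 0.13), and the adaptor gene Traf6, which RANK uses, by 0.53 (SE 0.08). Traf3, an inhibitor of the noncanonical arm, rose least, by 0.38. Map3k7, Chuk, Ikbkg and Nfkbib stood between −0.18 and 0.02. Chuk was called lower with upper-quartile scaling and without control 3, and by library totals all 19 genes rose.

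The lymphoid tissue that lies under M cells was represented by CCL20's receptor and by organiser genes. Of 11 tested, 8 rose and 2 fell, beside 34.2% and 32.1% over all genes tested, and the median was 0.73. The chemokine receptor gene Ccr7 rose most, by 1.46 (SE 0.09), and Ltb, encoding lymphotoxin beta, by 1.09. The follicle chemokine gene Cxcl13 rose by 0.25 and its receptor gene Cxcr5 by 0.30, and both calls were lost by DESeq2 and in some fits that left out 1 library (Cxcl13 without control 1 or K5-RANKL 3, Cxcr5 without control 2 or 3 or K5-RANKL 1 or 2). Ltbr, encoding the lymphotoxin beta receptor, fell by 0.25 but turned to 0.75 by library totals and lost its call without K5-RANKL 3. Madcam1 rose by 0.73, and its call was lost by DESeq2, with quality weights and without control 3, K5-RANKL 1 or K5-RANKL 2. By DESeq2 5 genes rose in place of 8.

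The markers of other cells that use these genes moved as follows. Counts for these and the later marker lists stand beside 34.2% called higher and 32.1% called lower over all genes tested. For Spib, 3 of 10 B cell genes rose and 0 fell (median 0.16), and their sum was 167 to 181 CPM in controls and 242 to 260 in K5-RANKL libraries. Cr2, which follicular dendritic cells also make, went from 16.3 to 73.9 CPM, a rise of 2.19 (SE 0.10), while Ms4a1 rose by 0.31 and the B cell receptor gene Cd79a stood at 0.16. Relative to Cd79a in the same library Spib rose 28.9-fold, with no overlap. Of 5 plasmacytoid dendritic cell genes 4 rose and 1, Tcf4, fell, by 0.25, turning to 0.74 by library totals. The highest call was Cox6a2 (1.09, lost by DESeq2, with quality weights and without control 1 or 2 or K5-RANKL 1 or 2), and the 5 summed to 56.2 to 65.9 and 62.0 to 63.5 CPM. The part of these dendritic cells in the rise of Spib was not tested. Of 5 plasma cell genes tested 1, Prdm1, rose and 3 fell. Jchain, encoding the joining chain of secreted antibodies, stood at −1.15 (SE 0.24), with −0.16 and no call by library totals, and Xbp1 and Derl3, which acinar cells also make, stood at −0.86 and −2.32, with Xbp1 at 0.13 by library totals.

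For Ccl9, Tnfaip2 and Pglyrp1, all 10 macrophage genes rose, between 1.83 and 2.78 with a median of 2.34, and their sum went from 394 to 470 CPM in controls to 2562 to 2682 in K5-RANKL libraries. Lyz2, the highest of them in CPM, rose by 2.78 (SE 0.10). All 6 dendritic cell genes rose, with a median of 1.67 and Itgax the highest at 2.55. Among 9 neutrophil genes, 4 had the counts for a test and all 4 rose, led by Csf3r (2.23). The call of S100a8 (1.23) was lost by DESeq2, with quality weights and without control 1, control 2 or K5-RANKL 1. The 9 summed to 2.49 to 4.93 CPM in controls and 12.4 to 14.6 in K5-RANKL libraries. The part of macrophages, dendritic cells and neutrophils in the rise of Ccl9, Tnfaip2 and Pglyrp1 was not tested.

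Of 7 general epithelial markers 6 rose and 1 fell, with a median of 0.40. The call of Krt18 (0.18) was lost with upper-quartile scaling and without control 3 or any 1 of the K5-RANKL libraries. Epcam, at 203 ± 6.25 and 351 ± 7.27 CPM (SD, n = 3 each), rose by 0.79, and Krt19, of ducts, by 2.61, while Krt7 fell by 0.19, lost its call in several alternatives and turned to 0.81 by library totals. Of 10 salivary acinar and duct genes, which mark the labelled tissue, 9 fell and Cftr rose by 1.00, with a median of −2.00. All 10 were present in every library. Amy1, encoding salivary amylase, fell most, by 5.04 (SE 0.96), from 18332 ± 6067 to 556 ± 387 CPM (SD, n = 3 each), and Bhlha15, a factor of secretory acinar cells, fell by 2.44 (SE 0.12). Klk1, the highest in CPM, fell least, by 1.56. By library totals 8 of the 10 were called lower.

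Medullary thymic epithelium, another epithelium that matures under RANKL and holds cells of M cell type, was represented by 7 genes. All 6 tested rose, with a median of 3.12. They include Krt5 (3.03), the keratin 5 gene of basal epithelial cells, whose promoter drives the transgene. Whether cells of thymic type were present, and which cells account for the rise of this list, was not tested. Aire, the regulator of self-antigen display there, had 2, 0 and 0 counts in controls and 5.60, 2.89 and 4.47 CPM with RANKL, 75.0 times as much (95% counting interval 20.6 to 622). Fezf2, another such regulator, went from 1 count to 103, a ratio of 54.2 (95% counting interval 9.52 to 2162). Krt14, the lowest of the list, rose by 2.60, and Ccl21a had 0 counts in all libraries. Among 7 tuft cell genes 4 were tested and 3 rose, of which Dclk1 rose by 1.92; Gfi1b went from 1 count in controls to 165, and the defining factor Pou2f3 had 3 and 5 counts.

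**Figure D4:**
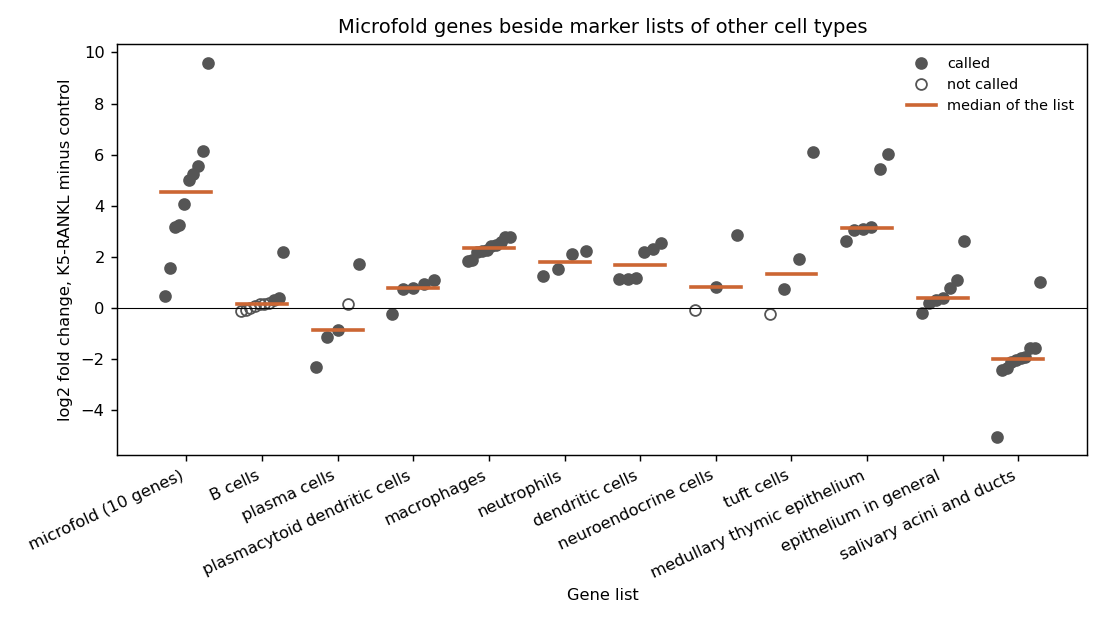
Log2 fold change, K5-RANKL minus control (y axis), of the tested genes in each marker list (x axis), filled where called, with the list median as a bar. The median is 4.54 for the 10 microfold cell genes, 0.16 for B cells, 2.34 for macrophages, 3.12 for medullary thymic epithelium and −2.00 for salivary acini and ducts.

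The genes on either side of the 10 along the chromosomes, taking the nearest tested gene in each direction, were called higher in 12 of 20 cases, lower in 2 and neither in 6, beside 34.2% and 32.1% over all genes tested. Their median was 1.03 and none overlapped the gene it was paired with. Next to Sox8, 124 bases away, the unnamed transcript 2810468N07Rik rose by 4.14 from 0.253 to 4.82 CPM (edgeR adjusted p = 8.08e-09), and by 5.00 without control 3. Beside Anxa5, 49 bases away, 1810062G17Rik fell by 3.78 from 2.65 to 0.185 CPM (edgeR adjusted p = 1.2e-07). The neighbours of Marcksl1 and Pglyrp1 lay between −0.01 and 0.34. The counting's strand setting is not given in the sources used here, and reads of transcripts at such short distances cannot be assigned with certainty.

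The genes whose profile over the 6 libraries was nearest to those of Spib, Sox8 and Gp2 were found by the distance between log2 profiles centred on each gene's mean, among those that averaged 1 CPM or more. Nearest to Spib were Cyp2b19 (distance 0.21), a cytochrome P450 gene of keratinocytes, Il1rn (0.29), encoding the interleukin 1 receptor antagonist, and Hamp2 (0.31), which had 0 counts in controls and 3.33 ± 0.303 CPM with RANKL, at least 37.5-fold higher against 3 counts over the control group. Sox8 was nearest to Plekhs1 (0.23), Thbs4 (0.40), encoding a thrombospondin, and Dsg1b (0.54), encoding a desmosomal cadherin, and Gp2 to Cd40 (0.27), Clec5a (0.38) and the mitotic kinase gene Bub1 (0.38). Over 6 libraries in 2 groups such distances mostly reflect the size of the difference between groups after 0.1 CPM is added to each level. Hamp2 and Dsg1b had 0 and 1 counts over the controls, so their distances depend on that added value. In the edgeR fit Dsg1b rose by 8.05 and Sox8 by 6.15.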

How the data were processed

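The authors deposited raw read counts per gene as whole numbers, made from TruSeq Stranded mRNA libraries per the labels' protocols. STAR and mm10 are named in the submitters' processing notes; the counting tool, annotation and strand setting were not given in the sources used here. Groups come from the genotype label, and replicate numbers only name libraries. No library was a copy of another: chi-square per gene within groups was 6.26 to 38.3. Control 1 stood apart from controls 2 and 3, at 37 and 38.3, while controls 2 and 3 differed by 6.26.

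Genes were filtered with filterByExpr (minimum count 10; 14044 left), scaled by TMM and compared by the quasi-likelihood test of edgeR 4.0.16 in R 4.3.3 (robust, two-sided) with Benjamini-Hochberg adjustment over all of them; each SE is the log2 fold change over √F. The test was checked on simulated counts in which few genes changed, unlike these data, where 66.2% of genes tested were called. Log2 ratios within a library add 0.5 counts, and likeness adds 0.1 CPM. Exon lengths are from GENCODE M21 and positions from RefSeq GRCm38.p6, which is the mm10 assembly; 23495 of 23571 Entrez identifiers matched. Of 199 list entries 197 matched, 2 of them by an older symbol.

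The 10 genes, the 22 lists and the alternatives were chosen with earlier results of these data known. Named genes are the 10, Tnfsf11 and Tnfrsf11a, the called extremes of each list and those against its direction, the most abundant marker of each cell type, the ratio references and the 3 nearest profiles; others were picked after their values were seen. Alternatives were RLE, upper-quartile and no scaling, TMM without the 20 most abundant genes, no filter, at least 50 counts in 3 libraries, DESeq2 1.42.0, limma 3.58.1 voom with and without quality weights, and each library left out. The values of 1 gene of the lists are not reported here.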

Additional observations from a re-analysis of the deposited data

How the results depend on the processing

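No paired analysis was possible because the labels give the groups no shared replicate numbers. All 10 genes were called higher under each alternative except Pglyrp1 in the 5 fits without single libraries named above (log2 fold change 1.35 to 2.07 with each library left out) and Scg5 with at least 50 counts in 3 libraries, where it was not tested. By library totals 11733 genes were higher and 698 lower, in place of 4799 and 4505.

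By library totals the counts of genes called higher became 11 (ETS factors), 7 (Sox factors), 8 (annexins), 4 (granins), 10 (B cells) and 2 (plasma cells), and the counts called lower became 0 (other microfold genes, Sox factors, annexins, granins, plasmacytoid dendritic cells and epithelium), 1 (lymphoid tissue genes), 2 (ETS factors) and 1 (plasma cells). With upper-quartile scaling 1 relay gene was lower. With DESeq2, 5 lymphoid tissue genes, 0 granins and 1 neuroendocrine gene were higher. Without the filter 2 granins, 4 neuroendocrine genes and 2 pancreatic genes were higher and 0 epithelial genes lower, as with quality weights (0). With at least 50 counts 1 peptidoglycan recognition gene, 0 granins, 2 neutrophil genes and 1 neuroendocrine gene were higher.

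With each library left out, the counts ran from 0 to 1 for relay genes lower and 1 to 2 for lymphoid tissue genes lower. Among lymphoid tissue genes higher, the calls of Cxcl13, Cxcr5 and Madcam1 were lost in some of these fits. The counts ran from 0 to 2 for granins higher, and for plasmacytoid dendritic cell genes from 2 to 4 higher and 0 to 1 lower. They ran from 1 to 2 for neuroendocrine genes higher, 0 to 1 for pancreatic genes higher and 0 to 1 for epithelial genes lower.

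By library totals these turned direction: Map3k7 (0.92), Chuk (0.82), Nfkbib (0.88), Ltbr (0.75), Ehf (0.39), Elf3 (0.94), Ets2 (0.80), Sox9 (0.64), Sox6 (0.81), Sox17 (0.90), Anxa6 (0.50), Anxa11 (0.43), Cpe (0.64), Pax5 (0.86), Fcrla (0.92), Xbp1 (0.13), Tcf4 (0.74), Syp (0.90), Krt7 (0.81), D3Ertd254e (0.87) and Hdac1 (0.99). With 5 counts added, the log2 ratios fell to 1.91 (Gp2 to Epcam), 4.63 (Sox8 to Epcam), 5.77 (Sox8 to Sox9), 6.59 (Sox8 to Sox10) and 8.03 (Ccl20 to Epcam), since their controls hold few counts. The cause of the other changes was not tested. Counts in controls limit the size of the rises of Ccl20, Sox8, Gp2 and Scg5.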
